A study of Mus musculus with 9 samples.

Results

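Dazl, Dnd1, Elavl2, Cpeb1 and Pum2 encode RNA-binding proteins that control the translation and stability of germ-cell mRNAs. These 5 genes were taken by symbol from the 56691 genes of a count table of the mouse testis on postnatal day 7, and all 5 were among the 17251 genes with enough counts to be tested. Dazl was chosen by its measured change against wild type, which had opposite signs in the 2 knockout groups, so its values below are a description and carry no test. Dnd1, Elavl2, Cpeb1 and Pum2 were chosen for their function, with earlier results of these data known. Oligo(dT)-enriched mRNA was sequenced from 3 groups of 3 libraries. These were labelled as a double knockout of Gm4779 and Gm1142 (DKO), as a knockout of Gm1142 (Gm1142KO) and as wild type (WT). The sources used here state neither the strain, nor the form of the alleles, nor any pooling of animals. Since no label says that replicates came from separate animals, the p-values cover the spread among these libraries alone, which may be technical.

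Germ cells make many mRNAs ahead of the time at which the proteins are needed, and proteins bound to the 3′ untranslated region (3′ UTR) decide when such an mRNA is translated or destroyed. DAZL binds U-rich stretches that contain GUU and recruits poly(A)-binding protein, and it is needed for germ-cell development in both sexes of the mouse. CPEB1 binds the cytoplasmic polyadenylation element and can hold an mRNA silent or lengthen its poly(A) tail. PUM2 binds the Pumilio element and mostly represses, DND1 works with NANOS proteins and the CCR4-NOT deadenylase, and ELAVL2, a member of the Hu family, binds AU-rich elements. At this age spermatogonia are the germ cells of the testis, next to dividing Sertoli cells, and all 5 genes belong to the machinery active in the germ cells. Pum2 and Cpeb1 are also used by many other tissues, and Elavl2 by neurons.

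The elements that these proteins read were searched in the 3′ UTRs of the 5 mRNAs themselves, since an mRNA of one regulator can be a target of another. For each gene the protein-coding transcript with the longest 3′ UTR in GENCODE M21 (build GRCm38) was read on the mRNA strand. The Dazl 3′ UTR of 1854 bases held 5 copies of TTTTAT, the polyadenylation element in DNA letters. Among 3135 3′ UTRs of 0.8 to 1.25 times its length, the median was 1 copy and 8.68% had as many as Dazl. The windows of 30 bases below show the 5 sites in Dazl, on the minus strand of chromosome 17, with the element in capitals.
Dazl site at chr17:50281114-50281143: agattgcatagTTTTATgttaaacttgtta
Dazl site at chr17:50280892-50280921: caagaaaagaaTTTTATaaacctattttga
Dazl site at chr17:50280373-50280402: tgctgaaaattTTTTATgtcacttaaaagt
Dazl site at chr17:50280330-50280359: tgaaaaattgtTTTTATaaaaacattcaaa
Dazl site at chr17:50279751-50279780: agtcaaaattcTTTTATgtcaccaagtcag

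The Pumilio element TGTANATA was absent from the Dazl and Dnd1 3′ UTRs, and present in those of Cpeb1 (1 copy), Elavl2 and Pum2. Elavl2 had 3 copies in 2477 bases, a number reached by 3.59% of 2817 3′ UTRs of like length. Pum2 had 2 copies in 2861 bases, reached by 14.5% of 2574. Elavl2 also held 15 copies of the AU-rich pentamer ATTTA, reached by 1.38% of 3′ UTRs of like length, and 7 copies of TTTTAT (5.57%). The short Dnd1 3′ UTR of 360 bases held 2 copies of TTTGTTT, a U-rich stretch around a central G, which 3.56% of 1965 3′ UTRs of like length had. Every motif was searched in each 3′ UTR, and most other counts were commoner. TTTGTTT was reached by 53.7% for Dazl, 64.6% for Elavl2, 41.8% for Cpeb1 and 43.9% for Pum2. ATTTA was reached by 22.4% for Dazl, 41.8% for Dnd1, 18.1% for Cpeb1 and 16.2% for Pum2. TTTTAT was reached by 6.36% for Dnd1, 35.3% for Cpeb1 and 24.1% for Pum2, and TGTANATA by 24.8% for Cpeb1. The Pumilio sites of Elavl2 (chromosome 4, minus strand), Cpeb1 (chromosome 7, minus strand) and Pum2 (chromosome 12, plus strand) are printed with the element in capitals. One of them, the last listed for Elavl2, overlaps a copy of ATTTA, and none of the other printed sites overlaps another searched motif. A match describes letters in the reference sequence and does not show binding.
Elavl2 site at chr4:91251942-91251971: gctttgtgtgaTGTAAATAagaccttgtgt
Elavl2 site at chr4:91251734-91251763: ctaattctgtcTGTAGATAgtctagcttca
Elavl2 site at chr4:91251069-91251098: aataaaatacaTGTATATAtttaaaaaaaa
Cpeb1 site at chr7:81347543-81347572: tgagcagctgcTGTATATAgttttaaatgg
Pum2 site at chr12:8750154-8750183: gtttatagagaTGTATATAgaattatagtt
Pum2 site at chr12:8750407-8750436: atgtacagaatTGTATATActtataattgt

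Total gene counts were 4370124 to 8359594 in DKO, 4597447 to 5243756 in the libraries labelled Gm1142KO and 4514237 to 5091624 in WT. Gm1142 (symbol 8030474K03Rik in the annotation) had 0 counts in all 3 DKO libraries, 65, 46 and 50 counts in those labelled Gm1142KO and 56, 50 and 41 counts in WT. Gm4779 also had 0 counts in each DKO library, with 88, 61 and 59 counts in those labelled Gm1142KO and 42, 48 and 53 in WT. Its CPM was higher in every library labelled Gm1142KO than in any of WT, but did not pass (edgeR adjusted p = 0.146). The count of Gm1142 thus did not set the libraries labelled Gm1142KO apart from WT, and every direction given for them is that of the label. Mitochondrially encoded genes took 27.1% to 32.9% of counts in DKO, 32.5% to 38.9% in the libraries labelled Gm1142KO and 29.4% to 32.7% in WT. Replicate 2 of the libraries labelled Gm1142KO had the highest share and replicate 2 of DKO the greatest depth. Levels are CPM, the reads of a gene scaled to a common library total, with library sizes adjusted by the trimmed mean of M-values (TMM).

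Per kilobase of exon, Dazl was the most abundant of the 5 mRNAs in every group. In WT its level of 51.1 ± 7.07 CPM per kb (SD, n = 3) lay above 97.8% of the 16803 tested genes with a known length. Pum2 followed with 18.1 ± 1.06 CPM per kb (above 87.8% of genes), Dnd1 with 5.27 ± 0.717 (53.7%), Cpeb1 with 2.52 ± 0.728 (32.2%) and Elavl2 with 1.22 ± 0.358 (15.9%). The order of the 5 means was the same in DKO and in the libraries labelled Gm1142KO, and no 2 neighbours in it overlapped within any group. The lowest expressed members rest on few reads: Elavl2 had 24 to 168 counts per library and Cpeb1 39 to 111, against 401 to 3259 for Dazl.

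Dazl (ENSMUSG00000010592.10) lies on chromosome 17 at 50279395 to 50293636 (GRCm38, minus strand). Counting was done on mm39 by the submitters, so positions here and below belong to the annotation rather than to the count table. Its level was 305, 368 and 370.3 CPM in DKO, 138, 102.5 and 131 CPM in the libraries labelled Gm1142KO, and 179, 226.5 and 181 CPM in WT. The 3 groups did not overlap: every DKO library was above every WT library, and every library labelled Gm1142KO was below. The means were 348 ± 36.7 CPM in DKO, 124 ± 18.7 CPM in the libraries labelled Gm1142KO and 195 ± 27.0 CPM in WT. The log2 fold change was 0.83 in DKO against WT, -0.66 in the libraries labelled Gm1142KO against WT and 1.49 in DKO against those libraries. These 3 values share libraries and are given as the description for which Dazl was picked. Leaving out each library in turn gave 0.77 to 0.95 in DKO against WT and -0.74 to -0.54 in the libraries labelled Gm1142KO against WT, a description that adds no support to the signs for which Dazl was picked.

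**Figure D1:**
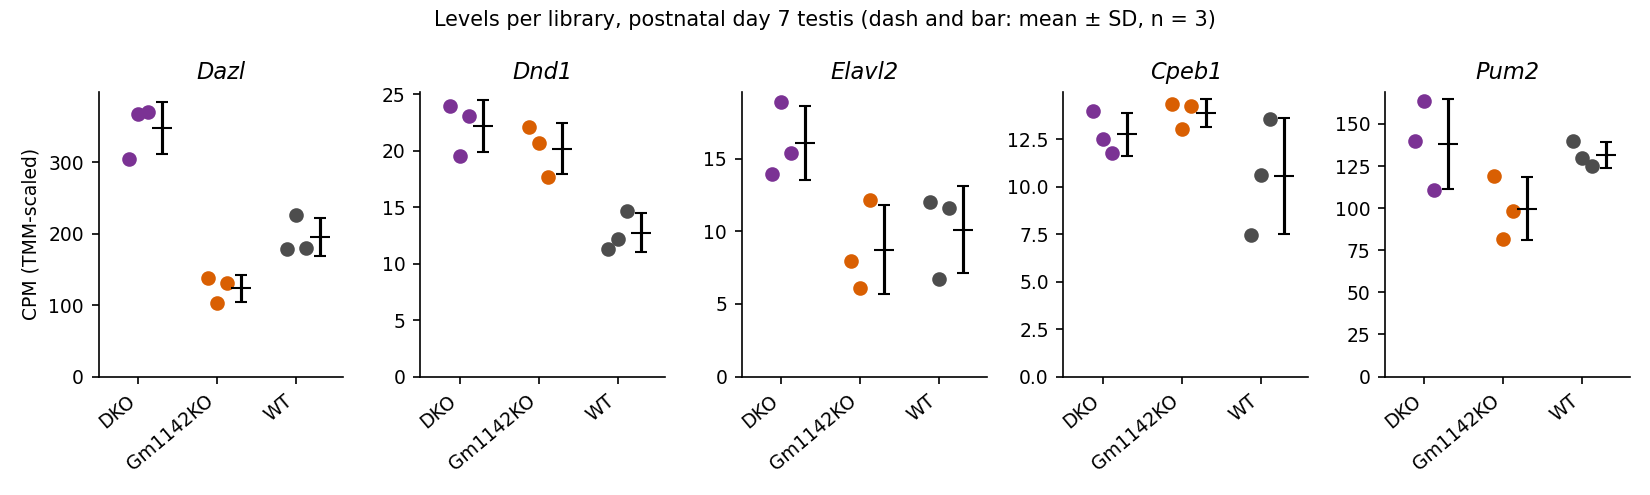
TMM-scaled CPM of the 5 genes (vertical axes, each from 0) in the 3 libraries of DKO, Gm1142KO (by label) and WT, with the mean ± SD beside the points. Dazl separates the 3 groups, with 305 to 370.3 CPM in DKO and 102.5 to 138 CPM in the libraries labelled Gm1142KO, and Dnd1 lies higher in both than in WT.

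The Dazl level was set beside that of other germ-cell genes in the same libraries, because in whole testis fewer cells of a type and less RNA per cell cannot be told apart. The summed level of 14 germ-cell markers, among them Taf7l, Ddx4 and Piwil2, was 603 ± 78.8 CPM in DKO, 449.9 ± 53.7 CPM in the libraries labelled Gm1142KO and 411 ± 24.5 CPM in WT. Its range was 528 to 685 CPM in DKO, 405 to 509 CPM in the libraries labelled Gm1142KO and 397 to 439 CPM in WT. The sums of the libraries labelled Gm1142KO and of WT overlapped, and the number of germ cells was not measured. Of the 13 markers tested, edgeR called 3 higher in DKO than in the libraries labelled Gm1142KO, where 9.07% of all genes were higher. It called 0 in DKO against WT, where 0.0464% of all genes passed in each direction. In the libraries labelled Gm1142KO against WT it also called 0, where 10.2% of all genes were higher and 8.38% lower. An unadjusted edgeR p under 0.05 was reached by 9 in DKO against WT and by 1 in the libraries labelled Gm1142KO against WT. Here and below, the share of all genes at that unadjusted p was not counted. DESeq2 called 1 and 0 and limma-voom 0 and 0 in these comparisons. As a percentage of that sum Dazl stood at 57.9, 53.7 and 62.1 in DKO, at 31.7, 25.3 and 25.7 in the libraries labelled Gm1142KO and at 45.1, 51.55 and 45.5 in WT. The 3 groups did not overlap on this scale either, although the gap between DKO and WT narrowed to 53.7 against 51.55. Against Ddx4 alone, the RNA helicase gene of germ cells, the Dazl level was 326% to 460% in DKO, 192% to 245% in the libraries labelled Gm1142KO and 259% to 347% in WT. On that scale DKO and WT overlapped, and the libraries labelled Gm1142KO stayed below both. Ddx4 is itself among the reported DAZL targets followed below, as is Tex14, another of the 14 markers. Ddx4 was also called higher in DKO than in the libraries labelled Gm1142KO (edgeR adjusted p = 0.0144), so neither scale is a fixed reference.

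**Figure D2:**
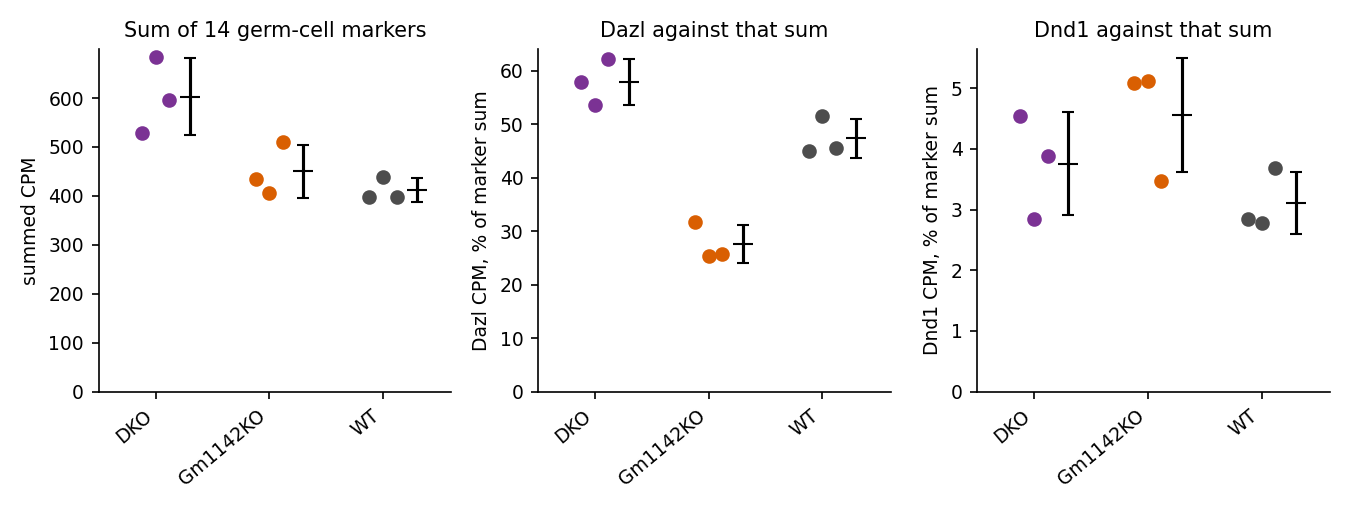
Summed CPM of 14 germ-cell markers, and the CPM of Dazl and of Dnd1 as a percentage of that sum, per library with mean ± SD, for DKO, Gm1142KO (by label) and WT. The marker sum is highest in DKO at 528 to 685 CPM, and the Dazl percentage is lowest in the libraries labelled Gm1142KO at 25.3 to 31.7.

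Of the 4 genes that can be tested, Dnd1 rose in the libraries labelled Gm1142KO against WT, and Elavl2 and Pum2 rose in DKO against the libraries labelled Gm1142KO. Cpeb1 passed in no comparison. By edgeR's quasi-likelihood test with Benjamini-Hochberg adjustment over 17251 genes, 1 of the 4 was called higher and 0 lower in the libraries labelled Gm1142KO against WT, where 10.2% of all genes were higher and 8.38% lower. The comparison of DKO with the libraries labelled Gm1142KO gave 2 of the 4 higher and 0 lower, where 9.07% of all genes were higher and 10.1% lower. With DKO set against WT edgeR called 0 of the 4, where 0.0464% of all genes were called higher and 0.0464% lower. There 2 of the 4, Dnd1 and Elavl2, had an unadjusted edgeR p under 0.05, a share that was not counted over all genes. DESeq2 and limma-voom also called 0.

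Dnd1 (ENSMUSG00000044595.11), whose product guards germ cells and acts as a cofactor of NANOS2 in the male mouse, lies on chromosome 18 at 36763671 to 36766214, minus strand. Its level was 23.9, 19.5 and 23.1 CPM in DKO, 22.1, 20.7 and 17.7 CPM in the libraries labelled Gm1142KO, and 11.3, 12.2 and 14.6 CPM in WT. All 6 libraries of both knockout labels lay above the 3 of WT. Against WT the log2 fold change was 0.67 (SE 0.22, 95% interval 0.22 to 1.12) in the libraries labelled Gm1142KO, which passed (edgeR adjusted p = 0.0346). In DKO against WT it was 0.80 (SE 0.21, interval 0.36 to 1.24), which did not pass (edgeR adjusted p = 0.217). Between DKO and the libraries labelled Gm1142KO it differed by 0.13 (SE 0.21, interval -0.30 to 0.56, edgeR adjusted p = 0.708). The call against WT was lost without either of replicates 1 and 2 of the libraries labelled Gm1142KO (edgeR adjusted p = 0.103 and 0.0740) and without WT 1 or 2 (0.135 and 0.102).

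Dnd1 shares 140 exonic bases with Wdr55 on the opposite strand, and the sources used here give no strand setting for the counts, so reads from that stretch cannot be assigned to one gene. Wdr55 had 18.4 ± 4.05 CPM in DKO, 15.4 ± 2.98 CPM in the libraries labelled Gm1142KO and 17.6 ± 2.76 CPM in WT, and passed in no comparison. Set against the germ-cell marker sum, Dnd1 stood at 3.75% ± 0.849 in DKO, 4.56% ± 0.94 in the libraries labelled Gm1142KO and 3.11% ± 0.505 in WT. On that scale both knockout labels overlapped WT: the lowest library was at 2.85% in DKO and at 3.47% among those labelled Gm1142KO, and the highest WT library at 3.69%.

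Elavl2 (ENSMUSG00000008489.19), the Hu-family gene, lies on chromosome 4 at 91250763 to 91400785, minus strand. It had 13.97, 18.95 and 15.4 CPM in DKO, 7.96, 6.14 and 12.1 CPM in the libraries labelled Gm1142KO, and 12.1, 6.70 and 11.6 CPM in WT. Each DKO library lay above the other 6, while the libraries labelled Gm1142KO and WT overlapped. The log2 fold change of DKO against the libraries labelled Gm1142KO was 0.88 (SE 0.29, interval 0.27 to 1.49, edgeR adjusted p = 0.0410). Against WT it was 0.68 in DKO (SE 0.29, interval 0.08 to 1.28, edgeR adjusted p = 0.498) and -0.20 in the libraries labelled Gm1142KO (SE 0.30, interval -0.84 to 0.43, edgeR adjusted p = 0.701). With 1 library left out the second of these ranged from -0.52 (without replicate 3 of the libraries labelled Gm1142KO) to -0.016 (without replicate 2), and the value in DKO against WT was 0.45 without WT 2. The call between the knockout labels was lost when any of 5 of those 6 libraries was left out. The edgeR adjusted p was then 0.101 and 0.153 without replicates 1 and 2 of the libraries labelled Gm1142KO, and 0.0533, 0.165 and 0.0590 without DKO 1, 2 and 3. Elavl2 is also a neuronal gene: the summed level of 7 neuronal markers was 83.2 ± 10.3 CPM in DKO, 79.7 ± 2.83 CPM in the libraries labelled Gm1142KO and 72.3 ± 8.54 CPM in WT. Of the 5 tested, Tubb3 passed: the neuronal tubulin gene had 15.6 ± 3.62 CPM in DKO, 5.63 ± 1.33 CPM in the libraries labelled Gm1142KO and 11.6 ± 4.75 CPM in WT. It was higher in DKO than in the libraries labelled Gm1142KO (edgeR adjusted p = 0.00303) and fell in those libraries against WT (0.0318). Over all genes 9.07% were higher in the first of these comparisons and 8.38% lower in the second. Map2, the most abundant of the list, had 58.6 ± 11.9 CPM in DKO, 67.6 ± 5.30 CPM in the libraries labelled Gm1142KO and 53.1 ± 3.54 CPM in WT and passed in no comparison. The part of such cells in the Elavl2 level was not tested. As a percentage of the germ-cell marker sum Elavl2 stood at 2.67 ± 0.093 in DKO, 1.91 ± 0.44 in the libraries labelled Gm1142KO and 2.50 ± 0.844 in WT, and DKO overlapped WT on that scale but not the libraries labelled Gm1142KO.

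Pum2 (ENSMUSG00000020594.15), a Pumilio repressor expressed in many tissues, lies on chromosome 12 at 8674134 to 8752581, plus strand. It had 140.1, 164 and 110.5 CPM in DKO, 119, 81.8 and 98.0 CPM in the libraries labelled Gm1142KO, and 140.1, 129.7 and 125 CPM in WT. Each library labelled Gm1142KO lay below each WT library, but 1 of them lay above the lowest DKO library. The log2 fold change of DKO against the libraries labelled Gm1142KO was 0.47 (SE 0.15, interval 0.15 to 0.79, edgeR adjusted p = 0.0353). Against WT it was 0.07 in DKO (SE 0.15, interval -0.24 to 0.39, edgeR adjusted p = 0.922) and -0.40 in the libraries labelled Gm1142KO (SE 0.15, interval -0.72 to -0.08), which did not pass (edgeR adjusted p = 0.0782). It passed without replicate 1 of the libraries labelled Gm1142KO (-0.55, edgeR adjusted p = 0.0245), without DKO 2 (0.0445) and without DKO 3 (0.0445). The call between the knockout labels was lost without DKO 1 or 2 (edgeR adjusted p = 0.0906 and 0.186), without replicates 2 or 3 of the libraries labelled Gm1142KO (0.147 and 0.106) and without WT 1 or 2 (0.05004 and 0.0527). Fitted without the WT libraries it was 0.0704. The fold change was 0.34 without DKO 2, the deepest library, and also without replicate 2 of the libraries labelled Gm1142KO. As a percentage of the germ-cell marker sum Pum2 stood at 23.0 ± 4.08 in DKO, 22.3 ± 4.45 in the libraries labelled Gm1142KO and 32.1 ± 2.94 in WT. On that scale the knockout labels overlapped and every library of both lay below those of WT, so the difference called in CPM was not seen there. The marker sum was itself highest in DKO, and Pum2 is expressed in many tissues. The percentage is therefore no measure of Pum2 per germ cell.

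Cpeb1 (ENSMUSG00000025586.18), on chromosome 7 at 81347026 to 81455465, minus strand, had 13.97, 12.5 and 11.8 CPM in DKO, 14.4, 13.0 and 14.3 CPM in the libraries labelled Gm1142KO, and 7.47, 10.6 and 13.6 CPM in WT. WT spread over the widest range and overlapped both other groups. The log2 fold change was 0.28 in DKO against WT (interval -0.26 to 0.81, edgeR adjusted p = 0.807) and 0.40 in the libraries labelled Gm1142KO against WT (interval -0.14 to 0.94, edgeR adjusted p = 0.313). It was -0.12 between DKO and the libraries labelled Gm1142KO (interval -0.65 to 0.40, edgeR adjusted p = 0.776). With WT 1 left out the value was 0.079 in DKO and 0.20 in the libraries labelled Gm1142KO, and with WT 3 left out 0.50 in DKO and 0.62 in the libraries labelled Gm1142KO. Between the knockout labels it ranged from -0.20 (without DKO 1) to -0.08 (without DKO 3).

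**Figure D3:**
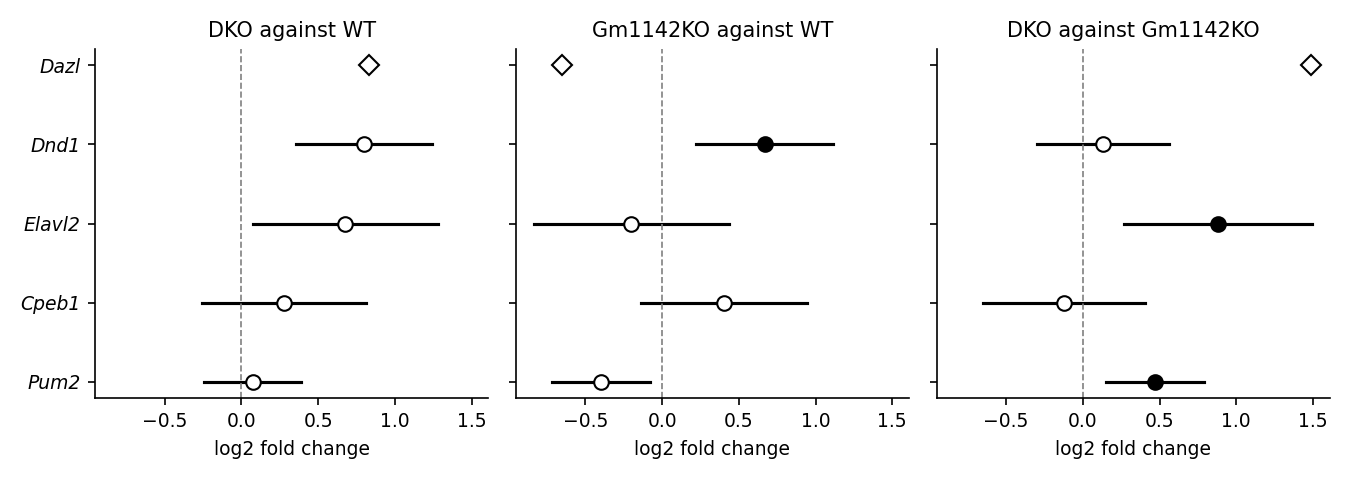
Log2 fold changes (horizontal axes) of the 5 genes in DKO against WT, Gm1142KO (by label) against WT and DKO against Gm1142KO, with 95% intervals from the edgeR fit and filled circles at an adjusted p under 0.05. Dazl is drawn as an open diamond with no interval because it was picked for these values. The 3 filled circles are Dnd1 at 0.67, Elavl2 at 0.88 and Pum2 at 0.47.

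The promoters of Dazl, Elavl2 and Pum2, whose levels were higher in DKO than in the libraries labelled Gm1142KO, are shown next. Each window runs from 250 bases before to 50 bases after the annotated start (RefSeq, GRCm38.p6), with CpG dinucleotides in capitals. For Elavl2 and Pum2 it is the first of 6 and 3 listed starts. Dazl, whose promoter is known to be silenced by DNA methylation in somatic cells, had 28 CpGs in its window, more than 86.0% of 27018 promoters. Pum2 had 37 CpGs, more than 94.6% of promoters, and Elavl2 had 10, more than 56.0%. The Dazl window also held 1 GCGCATGC, the core of the NRF1 motif, on either strand, as did 2.81% of promoters, and 1 CNCCTCAG, the STRA8-MEIOSIN motif, as did 7.97%. CACGTG and TATAAA were found in none of the 3 windows, and CCAAT in that of Dazl, as in 37.9% of promoters. The motifs were chosen with the sequences in view and show no binding.
Dazl promoter at chr17:50293571-50293870, minus strand: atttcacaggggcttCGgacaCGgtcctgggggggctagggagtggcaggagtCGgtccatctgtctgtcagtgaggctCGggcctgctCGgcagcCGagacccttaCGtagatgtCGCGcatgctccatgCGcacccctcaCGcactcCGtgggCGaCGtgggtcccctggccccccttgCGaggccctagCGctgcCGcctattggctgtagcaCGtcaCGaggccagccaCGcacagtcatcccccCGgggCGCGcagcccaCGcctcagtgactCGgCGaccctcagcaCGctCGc
Elavl2 promoter at chr4:91399935-91400234, minus strand: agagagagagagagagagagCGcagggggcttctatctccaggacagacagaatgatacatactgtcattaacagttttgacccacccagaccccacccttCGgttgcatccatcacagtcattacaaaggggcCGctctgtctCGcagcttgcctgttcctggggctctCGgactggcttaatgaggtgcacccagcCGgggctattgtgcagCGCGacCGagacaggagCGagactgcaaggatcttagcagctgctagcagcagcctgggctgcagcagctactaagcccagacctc
Pum2 promoter at chr12:8674009-8674308, plus strand: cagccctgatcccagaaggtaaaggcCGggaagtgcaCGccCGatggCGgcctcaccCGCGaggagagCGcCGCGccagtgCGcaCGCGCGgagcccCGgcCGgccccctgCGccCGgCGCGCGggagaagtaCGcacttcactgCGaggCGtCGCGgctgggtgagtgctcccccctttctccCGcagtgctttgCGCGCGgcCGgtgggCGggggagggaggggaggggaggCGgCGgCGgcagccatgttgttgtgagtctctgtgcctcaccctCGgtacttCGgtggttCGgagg

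Among 9 tested paralogues and NANOS partners of the members, Cpeb4 alone passed, in DKO against the libraries labelled Gm1142KO (all genes: 9.07% higher, 10.1% lower). Cpeb4, a relative of Cpeb1, had 20.4 ± 2.85 CPM in DKO, 11.1 ± 2.35 CPM in the libraries labelled Gm1142KO and 12.1 ± 2.99 CPM in WT. Its log2 fold change between the knockout labels was 0.88 (SE 0.25, edgeR adjusted p = 0.0165), and 0.76 in DKO against WT (edgeR adjusted p = 0.356). The call was lost without replicate 2 or 3 of the libraries labelled Gm1142KO (edgeR adjusted p = 0.0672 and 0.0584) and without DKO 2 (0.0810). Boll, the ancestral relative of Dazl that acts later in spermatogenesis, had 13.96 ± 5.14 CPM in DKO, 15.1 ± 3.33 CPM in the libraries labelled Gm1142KO and 8.34 ± 2.51 CPM in WT. Its log2 fold change of 0.85 in the libraries labelled Gm1142KO against WT just missed (SE 0.31, edgeR adjusted p = 0.0576) and passed in 6 alternative fits, with an edgeR adjusted p down to 0.0384 without WT 2. Dazl itself was at -0.66 there. Nanos3, a partner of Pumilio proteins in early germ cells, had 13.1 ± 2.68 CPM in DKO, 15.9 ± 2.66 CPM in the libraries labelled Gm1142KO and 10.1 ± 2.03 CPM in WT.

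Elavl1, which encodes the broadly expressed HuR, had 59.1 ± 9.93 CPM in DKO, 54.6 ± 15.2 CPM in the libraries labelled Gm1142KO and 51.9 ± 9.47 CPM in WT, and passed in no comparison. Cpeb2, Cpeb3, Nanos1 and the neuronal Elavl3 did not pass either. Nanos2, the marker of the most primitive spermatogonia, and the neuronal Elavl4 averaged under 1 CPM in every group and were not tested. With edgeR 0 of the 9 relatives passed in DKO against WT (all genes: 0.0464% in each direction) and 0 in the libraries labelled Gm1142KO against WT (10.2% higher, 8.38% lower). In each of these, 2 had an unadjusted edgeR p under 0.05, a share that was not counted over all genes, and DESeq2 and limma-voom also called 0.

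Of 21 tested genes of poly(A) binding, cytoplasmic polyadenylation and cap binding, 5 rose, 3 fell and 13 did not pass in the libraries labelled Gm1142KO against WT, where 10.2% of all genes were higher and 8.38% lower, with a median log2 fold change of 0.19, beside -0.01 over all tested genes. Tacc3, the vertebrate maskin gene, rose by 0.89 (SE 0.16, edgeR adjusted p = 6.53e-04), and Cpsf1, a subunit of the cleavage and polyadenylation factor, rose by 0.67 (SE 0.14, 0.00158). Cpsf2, another subunit of that factor, fell by 0.81 on the log2 scale (SE 0.17, 0.00217), to 28.2 ± 2.67 CPM in the libraries labelled Gm1142KO, against 49.5 ± 5.40 CPM in WT. Of these genes 4 were higher and 5 lower in DKO than in the libraries labelled Gm1142KO (all genes: 9.07% higher, 10.1% lower). The median was -0.02, beside 0.03 over all tested genes. Cpsf2 was higher by 0.95, while Cpsf1 fell by 0.64 and Tent2, the cytoplasmic poly(A) polymerase that works with CPEB1, fell by 0.59 on the log2 scale. For DKO against WT edgeR called 0 of 21, where 0.0464% of all genes passed in each direction, with 1 at an unadjusted p under 0.05 and 0 by DESeq2 and by limma-voom. The smallest p there was that of Tacc3 (log2 fold change 0.35, edgeR adjusted p = 0.552).

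Of 17 genes of the CCR4-NOT deadenylase and its adaptors, which shorten poly(A) tails for NANOS, DND1 and Pumilio proteins, 2 rose, 3 fell and 12 did not pass in the libraries labelled Gm1142KO against WT (all genes: 10.2% higher, 8.38% lower). The median of the log2 fold changes was -0.15. The catalytic subunit gene Cnot6 rose to 263 ± 13.2 CPM in the libraries labelled Gm1142KO, against 139 ± 17.4 CPM in WT, which is 0.92 in log2 units (SE 0.15, edgeR adjusted p = 1.87e-04). The other catalytic subunit gene shown, Cnot7, fell to 87.4 ± 7.96 CPM in the libraries labelled Gm1142KO, against 135 ± 8.44 CPM in WT (-0.63, SE 0.13, edgeR adjusted p = 0.00158). Cnot10 changed by -0.45 and lost its call without replicate 3 of the libraries labelled Gm1142KO (edgeR adjusted p = 0.0685) and without WT 2 (0.0562). Between DKO and the libraries labelled Gm1142KO 3 were higher and 2 lower (all genes: 9.07% higher, 10.1% lower). Cnot6 was at -0.94, Cnot7 at 0.68 and Cnot10 at 0.54 (edgeR adjusted p = 1.55e-04, 8.44e-04 and 0.00414). Against WT 0 of 17 passed in DKO with edgeR, DESeq2 or limma-voom, and 0 had an unadjusted edgeR p under 0.05. With edgeR 0.0464% of all genes passed there in each direction. All 17 log2 fold changes lay between -0.03 and 0.35 there, with Btg2 nearest to passing at 0.35 (edgeR adjusted p = 0.782), and at 0.092 without DKO 2.

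Of 29 other RNA-binding proteins studied in germ cells, 2 rose, 4 fell and 23 did not pass in the libraries labelled Gm1142KO against WT (median 0.15). Over all genes 10.2% were higher and 8.38% lower there, so the list's share of calls was near that of all genes. Rbm5, a splicing regulator needed for spermatid development in the mouse, fell to 526 ± 53.7 CPM in the libraries labelled Gm1142KO, against 986 ± 43.5 CPM in WT, which is -0.91 in log2 units (SE 0.11, edgeR adjusted p = 9.96e-06). Ptbp2, another splicing regulator with a role in spermatogenesis, rose to 399.9 ± 31.5 CPM in the libraries labelled Gm1142KO, against 217 ± 14.04 CPM in WT (0.88, SE 0.12, 2.22e-05). Tia1, which represses translation under stress, changed by -0.83 (SE 0.11, 2.23e-05). Between DKO and the libraries labelled Gm1142KO 7 were higher and 3 lower (median 0.10, all genes: 9.07% higher, 10.1% lower). Among these Ptbp2 was at -0.91, Rbm5 at 0.73 and the cold-shock protein gene Ybx1 at -0.66 (edgeR adjusted p = 1.86e-05, 1.11e-04 and 3.30e-04). With DKO against WT edgeR called 0 of 29, where 0.0464% of all genes passed in each direction. There 7 of the 29 had an unadjusted edgeR p under 0.05, a share that was not counted over all genes, and DESeq2 and limma-voom called 0. The smallest p there was that of Lin28a, which marks undifferentiated spermatogonia, at 34.5 ± 4.48 CPM in DKO and 18.5 ± 3.37 CPM in WT, which is 0.91 in log2 units (SE 0.25, edgeR adjusted p = 0.241). It passed with no filter on low counts (0.0146) and without replicate 2 of the libraries labelled Gm1142KO (0.0427).

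**Figure D4:**
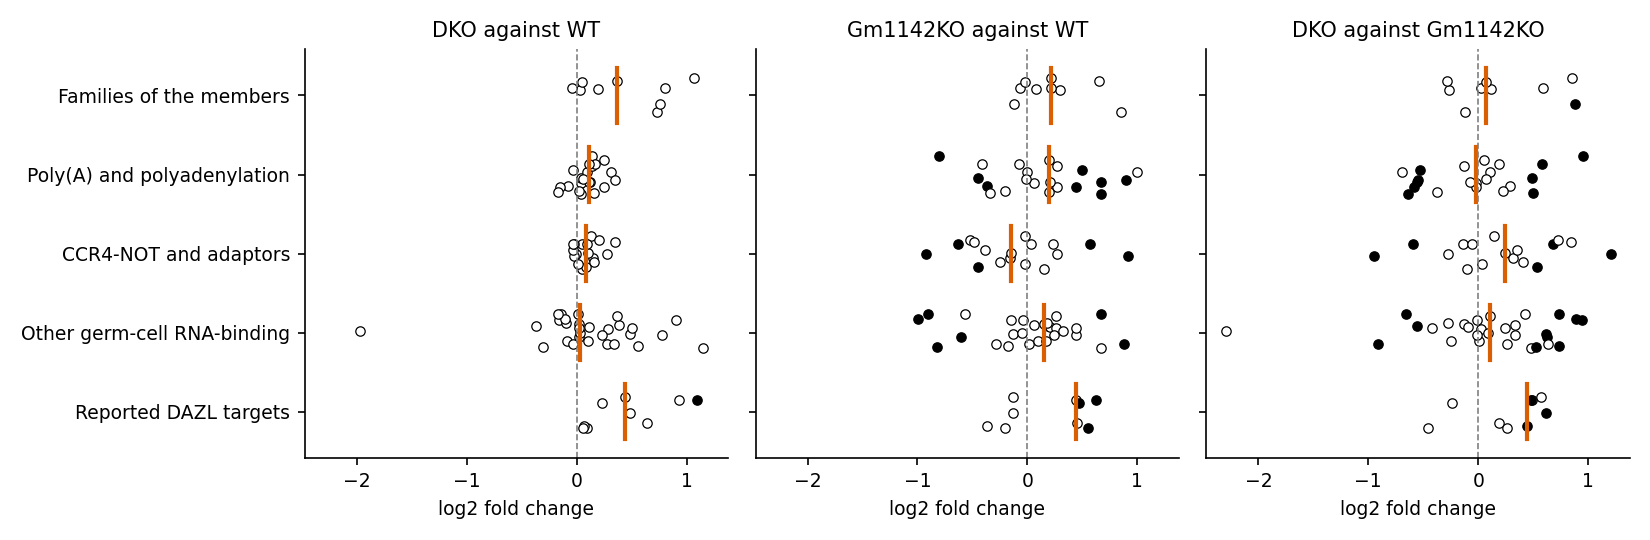
Log2 fold changes (horizontal axes) of every tested gene in 5 lists, in DKO against WT, Gm1142KO (by label) against WT and DKO against Gm1142KO, with filled circles at an edgeR adjusted p under 0.05 and orange bars at the list medians. In DKO against WT 1 circle is filled, Sycp1 at 1.10, while the other panels hold filled circles on both sides of 0.

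From the literature 10 mRNAs known as targets of DAZL were followed, 9 of which were tested. Sycp1, which builds the synaptonemal complex of meiosis, passed in all 3 comparisons. Its level was 78.7 ± 14.3 CPM in DKO, 56.6 ± 2.46 CPM in the libraries labelled Gm1142KO and 36.8 ± 6.75 CPM in WT. The log2 fold change was 1.10 in DKO against WT (SE 0.17, edgeR adjusted p = 0.00280), 0.62 in the libraries labelled Gm1142KO against WT (SE 0.17, 0.0130) and 0.48 between them (SE 0.16, 0.0436). Without WT 1 it passed neither in DKO (edgeR adjusted p = 0.0717) nor in the libraries labelled Gm1142KO (0.0971) against WT. Between the knockout labels the call was lost with the compared groups fitted alone (0.0542) and without any of 6 of the 9 libraries in turn, with an edgeR adjusted p of up to 0.134. Sycp1 was above WT under both knockout labels, and Dazl under that of DKO.

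In the libraries labelled Gm1142KO against WT 3 of the 9 target genes rose, 0 fell and 6 did not pass, where 10.2% of all genes were higher and 8.38% lower. The list's median was 0.44, beside -0.01 over all tested genes. Only 5 of the 9 had a positive log2 fold change, near the 49.3% of all tested genes, and the lowest was at -0.37. Besides Sycp1 the called genes were Grsf1 and Tbpl1. Grsf1, an RNA-binding protein gene, was at 0.47 (SE 0.14, edgeR adjusted p = 0.0234). Tbpl1, a germ-cell relative of the TATA-binding protein, was at 0.55 (SE 0.17, edgeR adjusted p = 0.0314). Each lost the call in several fits with 1 library left out, Grsf1 with an edgeR adjusted p of up to 0.123 and Tbpl1 of up to 0.159. Against WT 1 of 9 rose in DKO, where 0.0464% of all genes were higher. The list's median was also 0.44 there, beside 0.02 over all tested genes. In that comparison all 9 had a positive log2 fold change, where 52.3% of all tested genes did. The 13 tested germ-cell markers, which share Ddx4 and Tex14 with this list, had a median of 0.55 in DKO against WT. In the libraries labelled Gm1142KO against WT the median of those markers was 0.06. Ddx4 was the lead gene between the knockout labels, at 90.0 ± 23.2 CPM in DKO and 58.9 ± 8.31 CPM in the libraries labelled Gm1142KO (log2 fold change 0.62, SE 0.17, edgeR adjusted p = 0.0144). Its call was lost without DKO 2 (0.112) or replicate 2 of the libraries labelled Gm1142KO (0.0544). Mycbp2, a ubiquitin ligase gene, was higher by 0.44 (edgeR adjusted p = 0.0297), a call lost without any of 3 libraries and with the compared groups fitted alone (0.0631). Counts measure mRNA level, and translation of these targets was not measured.

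The cell types around the germ cells were read from fixed marker lists, since the 5 genes are measured in whole testis. The summed level of 14 Sertoli-cell markers, led by Clu, Inha and Wt1, was 1987 ± 242 CPM in DKO, 1847 ± 72.7 CPM in the libraries labelled Gm1142KO and 2020 ± 79.5 CPM in WT. That of 8 Leydig-cell markers was 656 ± 102 CPM in DKO, 403 ± 44.5 CPM in the libraries labelled Gm1142KO and 765 ± 130.5 CPM in WT, so Leydig-cell transcripts were low in the same libraries in which Dazl was. In the libraries labelled Gm1142KO against WT 3 of 7 tested Leydig-cell markers fell, and of 14 Sertoli-cell markers 1 rose and 4 fell. Over all genes 10.2% were higher and 8.38% lower in that comparison. Markers of undifferentiated spermatogonia summed to 134 ± 17.9 CPM in DKO, 113 ± 22.3 CPM in the libraries labelled Gm1142KO and 125 ± 5.57 CPM in WT. Markers of differentiating spermatogonia, led by Kit, summed to 175.5 ± 13.6 CPM in DKO, 131 ± 19.5 CPM in the libraries labelled Gm1142KO and 107 ± 12.1 CPM in WT. The libraries labelled Gm1142KO (114.8 to 152.5 CPM) and WT (98.4 to 120.8 CPM) overlapped on this sum, so their order is not settled. Markers of epididymis and ducts summed to 68.0 ± 14.1 CPM in DKO, 93.0 ± 14.2 CPM in the libraries labelled Gm1142KO and 113 ± 16.6 CPM in WT. In every marker list each gene found had at least 1 count in the 9 libraries. The part of cell composition in the levels of the 5 genes was not tested.

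Profiles over the 9 libraries were compared by the root mean square difference of log2(CPM + 1) values centred on each gene's mean, among 10536 genes with a symbol and at least 10 CPM on average. The nearest to Dazl were Lipo3 (0.23), Acsl3 (0.24) and Tmem170b (0.26), where Dazl itself deviated from its mean by 0.63. Acsl3, a fatty acid activating enzyme, averaged 56.85 CPM in DKO, 28.75 CPM in the libraries labelled Gm1142KO and 37.35 CPM in WT. Nearest to Elavl2 was Kit (0.18), the receptor of differentiating spermatogonia, at 55.3 CPM in DKO, 34.2 CPM in the libraries labelled Gm1142KO and 32.2 CPM in WT. Nearest to Dnd1 were Reln (0.14), Srd5a3 (0.15) and Nr6a1 (0.16), the last of which encodes germ cell nuclear factor and averaged 21.7 CPM in DKO, 18.6 CPM in the libraries labelled Gm1142KO and 12.4 CPM in WT. Nearest to Pum2 were Socs5 (0.04), Rbbp7 (0.06) and the DNA methyltransferase gene Dnmt3a (0.07), and nearest to Cpeb1 were Rtca (0.10) and Ptpn14 (0.11). The profiles share libraries and their scaling, so nearness is a description.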

How the data were processed

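The authors deposited a table of raw read counts per gene with 1 column for each of 9 libraries. Tools named in the submitters' processing notes are featureCounts, STAR, Bowtie2 and cutadapt, with the build mm39. The sources used here give no versions, annotation, strand setting or rule for multiply mapped reads. Identifiers were paired with symbols for 52073 of 56691 genes. Counts were analysed with edgeR 4.0.16 in R 4.3.3: filter by group (minimum count 10, total 15), TMM scaling, a quasi-likelihood fit of the 9 libraries with 1 term per group (6 residual degrees of freedom), and a call at an adjusted p under 0.05 (Benjamini-Hochberg) in each of 3 comparisons. The standard error is the log2 fold change divided by the square root of F, and intervals are at 95%. DESeq2 1.42.0 and limma 3.58.1 (voom) were alternatives. Exon lengths came from GENCODE M21. The 5 members and the gene lists (184 of 185 entries matched the table) were chosen with earlier results of these data known. Genes named were the members, their tested relatives, up to 3 called genes of each list per comparison by p, or the one with the smallest p, the nearest profiles, and the leading markers. Some genes that this rule names are not reported here.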

Additional observations from a re-analysis of the deposited data

Results flagged for a closer look

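The difference between the 2 changes against WT is the comparison of DKO with the libraries labelled Gm1142KO given above, since WT cancels. It is repeated here and is no further test. By edgeR it passed for Elavl2 (0.88 on the log2 scale, adjusted p = 0.0410) and Pum2 (0.47, 0.0353). In the fit of all 9 libraries neither gene passed against WT, in DKO or in the libraries labelled Gm1142KO. Dazl differed by 1.49 on the same scale. This was not tested, since Dazl was picked for it. The list genes that follow were taken because edgeR called them in DKO against the libraries labelled Gm1142KO, so all differ by selection. Over all genes 9.07% were higher and 10.1% lower in that comparison. The same difference was 0.88 for Cpeb4, 0.95 for Cpsf2, -0.64 for Cpsf1, -0.59 for Tent2, -0.94 for Cnot6, 0.68 for Cnot7 and 0.54 for Cnot10. It was -0.91 for Ptbp2, 0.73 for Rbm5, -0.66 for Ybx1, 0.62 for Ddx4, 0.44 for Mycbp2 and 0.48 for Sycp1.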

How the results depend on the processing

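In DKO against WT 16 genes were called over the whole table, but 110 with no filter, 68 with DESeq2, 28 with the compared groups fitted alone and 8 without mitochondrial genes and copies. Leaving out 1 library gave 9 (without WT 1) to 45 calls there (without replicate 2 of the libraries labelled Gm1142KO), 2037 to 3380 in the libraries labelled Gm1142KO against WT and 2128 to 3219 between the knockout labels. Dnd1 in the libraries labelled Gm1142KO lost its call with no filter (0.66, edgeR adjusted p = 0.0792) and with the replicate block (0.67, 0.0510). With 1 library left out it ranged from 0.59 to 0.78. Pum2 in the libraries labelled Gm1142KO gained a call with no filter (-0.41, 0.0440) and with the compared groups alone (-0.40, 0.0421), and without any of 3 single libraries (replicate 1 of those labelled Gm1142KO, DKO 2 or DKO 3). It ranged from -0.55 to -0.28 with 1 library left out. Between the knockout labels Pum2 lost its call with the compared groups alone (0.47, 0.0704) and ranged from 0.34 to 0.62, and Elavl2 from 0.68 to 1.19, with 1 library left out. Pum2 in DKO against WT ranged from -0.08 to 0.19 with 1 library left out and changed sign without DKO 2 (-0.084). The cause of these moves was not tested. Same-numbered libraries of different groups correlated at -0.267 to 0.101, so the numbers were not taken as pairs. The replicate block gave 16 calls in DKO against WT, 2921 in the libraries labelled Gm1142KO against WT and 2965 between the knockout labels. It also ended the call of Tbpl1. Elavl2, Cpeb1 and Dnd1 rest on under 200 counts per library, which limits their precision.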
